A study of Mus musculus with 8 samples.

Results

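Hmgb1, Hmgb2, Hmgb3, Hmga1, Hmgn1, Hmgn2, Dek and Atad2 encode chromatin proteins, and their RNA was followed in B16-F10 cells, a mouse melanoma line. They are 8 of the 46477 rows of the deposited expression table, taken by exact gene symbol, so that rows of their processed copies were kept apart. The set was selected on values of these same 8 libraries, with the contrast of medium by siFN already known. Levels and differences of the 8 genes are therefore a description and not a test. All 8 were among the 6917 genes with a mean of at least 1 FPKM (fragments counted per kilobase, a level corrected for gene length and depth). Hmgb1, with a mean of 1.06 FPKM, and Dek, with a mean of 1.14 FPKM, lay just above that limit.

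The melanoma cells were grown for 24 hours on extracellular matrix (ECM) left behind by lysed smooth muscle cells. Those smooth muscle cells had first received siRNA for 72 hours and had then spent 72 hours in 1 of 2 media, TCM or SFM. TCM is read here as the tumor conditioned media of the series title, and the labels do not spell out SFM. The siRNA treatments were siKLF4-siFN, siFN, siKLF4 and siNT, which makes 8 conditions with 1 library each, all from B16-F10 cells. A condition is written below as medium and siRNA, for example TCM siFN, and both refer to the smooth muscle cells that made the matrix.

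High mobility group (HMG) proteins are small, abundant proteins that bind DNA or nucleosomes with little sequence preference and change how chromatin bends and opens. The HMGB proteins bend DNA through their HMG boxes, HMGA proteins grip the minor groove of AT-rich DNA with AT hooks, and HMGN proteins bind nucleosomes and loosen their packing. DEK binds structured DNA and acts as a histone chaperone, and ATAD2 is an ATPase whose bromodomain reads acetylated histones. Several of these genes are known for high RNA levels in dividing cells and in tumours, melanoma among them.

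The estimated depth was 11600000 to 23100000 reads per library, recovered only approximately from the steps of low values. Markers of the melanocyte lineage summed to 355 to 579 FPKM per library, and 7 of 8 had a mean of at least 1 FPKM, Mitf being the exception. Of 8 smooth muscle markers 1 (Des, mean 1.07 FPKM) reached that level, their sum was 1.27 to 2.24 FPKM, and Acta2 and Myocd were listed at 0. Sums of fibroblast, endothelial and leukocyte markers were at most 0.212 FPKM. A library is bulk RNA, so fewer cells of a type and less RNA per cell cannot be told apart. TCM siKLF4-siFN and TCM siFN were unusually alike: 20 of 6917 genes (0.289%) differed between them by at least 1 on the log2(FPKM + 1) scale, against 50 to 703 genes in the other 11 pairs compared. SFM siKLF4-siFN differed from its neighbours along transcript GC content (the share of G and C bases), as given beside the GC values of the members. TCM siKLF4 differed in this way from TCM siKLF4-siFN and SFM siKLF4, though hardly from TCM siNT.

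Across the 8 libraries, 7 of the genes shared 1 outline and Hmga1 had its mirror image. Hmgb1, Hmgb2, Hmgb3, Hmgn1, Hmgn2, Dek and Atad2 were low on 3 matrices, SFM siKLF4-siFN, SFM siFN and TCM siNT, and Hmga1 was at its highest there. How many of all tested genes split the libraries in this way was not counted, and the set was selected on these values. The mean of the 8 genes after centring each on the log2(FPKM + 1) scale was 0.40 in TCM siKLF4-siFN, 0.37 in TCM siFN, 0.18 in TCM siKLF4 and -0.38 in TCM siNT. It was -0.75 in SFM siKLF4-siFN, -0.45 in SFM siFN, 0.33 in SFM siKLF4 and 0.30 in SFM siNT. The siFN matrices thus held the highest means within TCM and the lowest within SFM.

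**Figure D1:**
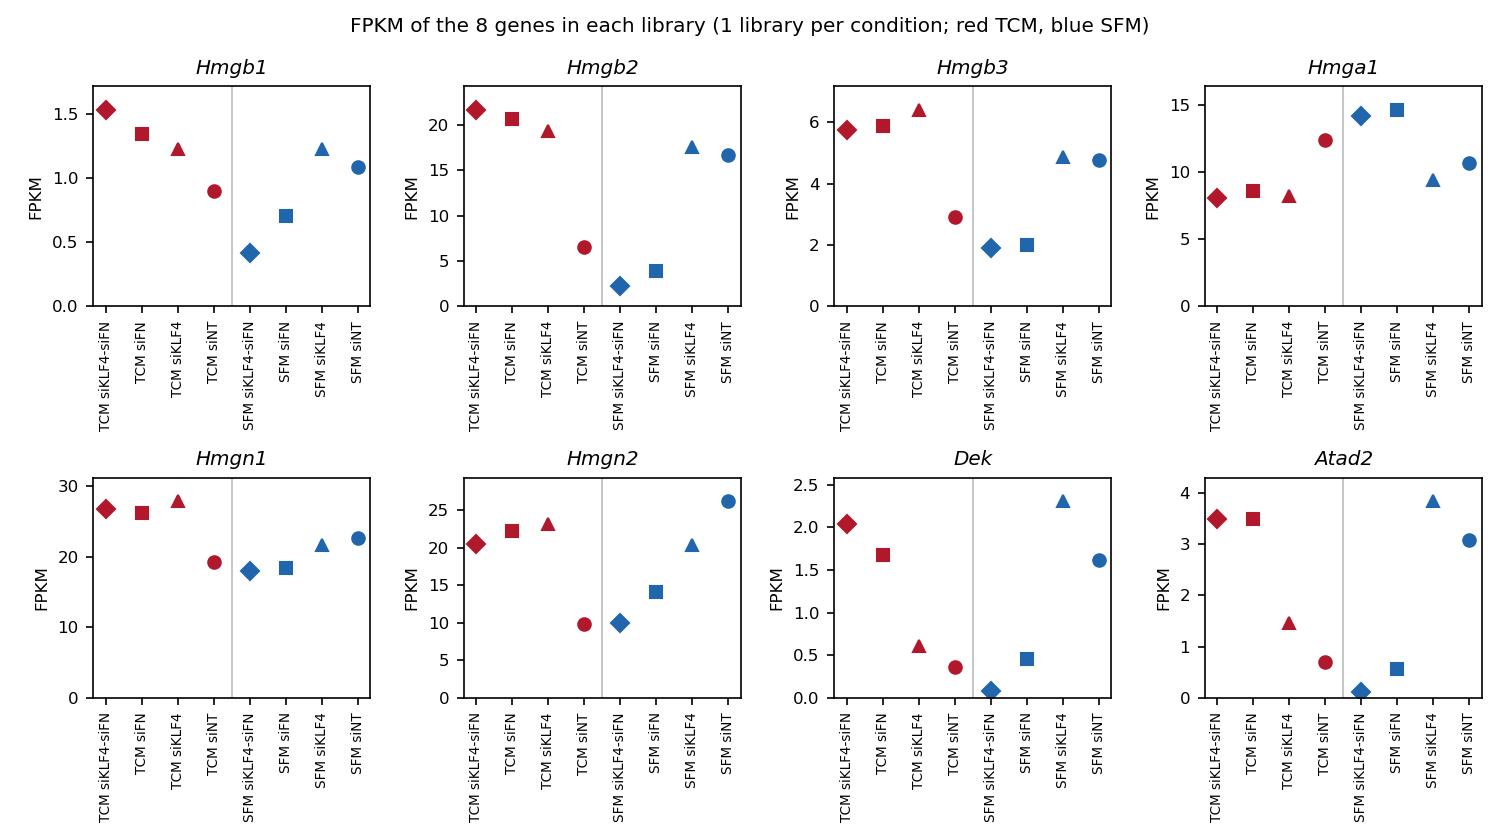
FPKM of the 8 genes (vertical axes, linear from 0) in each of the 8 libraries (horizontal axes), 1 point per library, red for TCM and blue for SFM, with no error bars because each condition has 1 library. Hmgb2 lies at 21.7 FPKM in TCM siKLF4-siFN and 20.7 FPKM in TCM siFN, against 2.24 FPKM in SFM siKLF4-siFN and 3.93 FPKM in SFM siFN, while Hmga1 runs the other way, and Dek and Atad2 are also low in TCM siKLF4.

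Among the HMGB genes, Hmgb2, whose protein is a DNA-bending paralog of HMGB1 typical of dividing cells, had the widest range. Hmgb2 (chr8:57511907-57515999, plus strand, GRCm38) had 21.7 FPKM in TCM siKLF4-siFN, 20.7 in TCM siFN, 19.3 in TCM siKLF4 and 6.50 in TCM siNT. On SFM matrices it had 2.24 FPKM in SFM siKLF4-siFN, 3.93 in SFM siFN, 17.5 in SFM siKLF4 and 16.7 in SFM siNT. Thus 5 libraries lay close together at a high level and 3 lay well below, with a 9.69-fold ratio between highest and lowest. Its range on the log2(FPKM + 1) scale was 2.81, wider than that of 99.6% of tested genes, whose median range was 0.59.

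Hmgb3, an X-linked paralog known from blood progenitors, followed Hmgb2 at a lower level. Hmgb3 (chrX:71555918-71560676, plus strand) had 5.77 FPKM in TCM siKLF4-siFN, 5.87 in TCM siFN, 6.42 in TCM siKLF4 and 2.92 in TCM siNT. In the SFM libraries it had 1.90 FPKM in SFM siKLF4-siFN, 2.01 in SFM siFN, 4.87 in SFM siKLF4 and 4.78 in SFM siNT. The same 3 libraries were the low ones and did not overlap the other 5, with a 3.38-fold range. Over the 8 libraries the Pearson r of Hmgb3 with Hmgb2 was 0.98, a description over points that share their matrix conditions and libraries.

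Hmgb1 encodes the founding HMGB protein, which bends DNA in the nucleus and acts as an alarm signal when it leaves the cell. Hmgb1 (chr5:149046702-149184489, minus strand) was listed far below its paralogs, at 1.54 FPKM in TCM siKLF4-siFN, 1.35 in TCM siFN, 1.23 in TCM siKLF4 and 0.901 in TCM siNT. It had 0.418 FPKM in SFM siKLF4-siFN, 0.707 in SFM siFN, 1.23 in SFM siKLF4 and 1.09 in SFM siNT. The order matched that of Hmgb2 in outline, with a shallower dip in TCM siNT, and the lowest library was SFM siKLF4-siFN. Part of the Hmgb1 transcript is shared with processed copies, whose values are given with those of the other copies.

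Promoters of the HMGB genes, Dek and Hmga1 are shown as examples from the set, chosen with the RNA values known, and no relation between motifs and RNA levels was tested. RefSeq windows on GRCm38.p6, from 250 bases before to 50 after the start, were found for 7 of the 8 genes, with 2 windows each for Hmgb1 and Hmga1; Atad2 had no entry. The 250 bases before the start are printed 5′ to 3′ on the strand of the gene, with the CCAAT box, bound by NF-Y, in capitals in either orientation (CCAAT, or ATTGG on the other strand).
Hmgb2, chr8:57511593-57511842, plus strand: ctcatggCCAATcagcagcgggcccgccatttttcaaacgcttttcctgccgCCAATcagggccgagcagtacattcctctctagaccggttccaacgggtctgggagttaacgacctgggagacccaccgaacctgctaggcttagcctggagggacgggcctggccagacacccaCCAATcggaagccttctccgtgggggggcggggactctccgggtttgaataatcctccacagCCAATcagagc
Hmgb3, chrX:71555667-71555916, plus strand: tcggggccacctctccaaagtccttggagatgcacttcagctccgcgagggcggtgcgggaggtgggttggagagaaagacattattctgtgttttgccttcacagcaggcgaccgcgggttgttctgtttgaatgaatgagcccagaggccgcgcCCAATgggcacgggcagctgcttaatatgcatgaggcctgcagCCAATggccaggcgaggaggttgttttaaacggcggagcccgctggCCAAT
Hmgb1, chr5:149053058-149053307, minus strand: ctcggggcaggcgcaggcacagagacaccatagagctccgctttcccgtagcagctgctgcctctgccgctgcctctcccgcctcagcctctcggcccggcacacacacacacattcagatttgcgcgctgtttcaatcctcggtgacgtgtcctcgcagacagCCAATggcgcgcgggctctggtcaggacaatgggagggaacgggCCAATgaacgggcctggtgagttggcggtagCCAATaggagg
Dek, chr13:47106222-47106471, minus strand: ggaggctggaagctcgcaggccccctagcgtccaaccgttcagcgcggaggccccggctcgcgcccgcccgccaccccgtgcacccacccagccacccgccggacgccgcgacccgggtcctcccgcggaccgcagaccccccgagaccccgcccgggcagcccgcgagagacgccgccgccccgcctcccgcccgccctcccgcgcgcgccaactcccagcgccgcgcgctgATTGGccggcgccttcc
Hmga1, chr17:27556324-27556573, plus strand: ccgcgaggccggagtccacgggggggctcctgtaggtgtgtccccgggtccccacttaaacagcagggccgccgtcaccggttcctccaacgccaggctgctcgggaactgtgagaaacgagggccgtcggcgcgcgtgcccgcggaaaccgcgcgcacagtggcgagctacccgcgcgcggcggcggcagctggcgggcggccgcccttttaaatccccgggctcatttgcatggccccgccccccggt
CCAAT occurred 4 times in the window of Hmgb2, 3 times in those of Hmgb3 and the first Hmgb1 start, 2 times in that of Hmgn1, and once each in those of Hmgn2 and Dek. It was not found in the second Hmgb1 window or in either Hmga1 window. Of all 32851 promoter windows of the same length, 37.41% held at least 1 CCAAT on either strand and 3.37% held at least 3. The cell cycle homology region (CHR, searched as TTTGAA and in the form TTCGAA) occurred in Hmgb2, Hmgb3 and Dek, against 19.23% of all windows. The E2F core was searched as TTGGCGC, in the form TTCCCGC, in the form TTCGCGC and in the form TTGCCGC. It occurred in Dek alone among the 7 genes with a window, against 9.57% of all windows. The E-box CACGTG occurred in Hmgn2 and in the second Hmgb1 window, against 7.15%. All motifs were read on both strands, ATTGG can run into TTGGCGC but did not do so in these windows, and a match is a description of letters and not of binding.

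Hmga1, the AT-hook member, ran opposite to the others. Hmga1 (chr17:27556497-27563674, plus strand) had 8.11 FPKM in TCM siKLF4-siFN, 8.57 in TCM siFN, 8.19 in TCM siKLF4 and 12.4 in TCM siNT. It had 14.2 FPKM in SFM siKLF4-siFN, 14.7 in SFM siFN, 9.40 in SFM siKLF4 and 10.7 in SFM siNT. The 3 libraries in which Hmgb2 was lowest were those in which Hmga1 was highest, and its r with the other members was -0.72 to -0.98. The spread was small, 1.81-fold in all, and its log2 range of 0.78 was wider than that of 67.7% of tested genes. The ratio of Hmga1 to Hmgb2 FPKM was 0.374 in TCM siKLF4-siFN, 0.414 in TCM siFN, 0.424 in TCM siKLF4 and 1.91 in TCM siNT. That ratio was 6.34 in SFM siKLF4-siFN, 3.73 in SFM siFN, 0.536 in SFM siKLF4 and 0.641 in SFM siNT. Hmga1 RNA was thus the more abundant per length on 3 matrices and Hmgb2 RNA on the other 5.

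The HMGN genes, whose proteins compete with linker histones on nucleosomes, had the highest mean levels of the 8 genes, 22.6 FPKM for Hmgn1 and 18.3 FPKM for Hmgn2. Hmgn1 (chr16:96120618-96127729, minus strand) had 26.8 FPKM in TCM siKLF4-siFN, 26.3 in TCM siFN, 27.9 in TCM siKLF4 and 19.2 in TCM siNT. It had 18.0 FPKM in SFM siKLF4-siFN, 18.5 in SFM siFN, 21.7 in SFM siKLF4 and 22.6 in SFM siNT. The same 3 libraries were lowest, but the whole spread was 1.55-fold, and 51.3% of tested genes had a smaller log2 range. Hmgn2 (chr4:133964738-133968650, minus strand) had 20.5 FPKM in TCM siKLF4-siFN, 22.2 in TCM siFN, 23.1 in TCM siKLF4 and 9.82 in TCM siNT. It had 9.93 FPKM in SFM siKLF4-siFN, 14.1 in SFM siFN, 20.3 in SFM siKLF4 and 26.2 in SFM siNT. Its highest level was in SFM siNT, and its lowest levels, in TCM siNT and SFM siKLF4-siFN, were nearly equal.

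Dek and Atad2 had the steepest ratios and shared a feature the HMG genes lacked, a low level in TCM siKLF4. Dek (chr13:47084775-47106201, minus strand), which encodes a chromatin protein and histone chaperone, had 2.04 FPKM in TCM siKLF4-siFN, 1.67 in TCM siFN, 0.605 in TCM siKLF4 and 0.356 in TCM siNT. It had 0.0789 FPKM in SFM siKLF4-siFN, 0.457 in SFM siFN, 2.31 in SFM siKLF4 and 1.62 in SFM siNT. The siKLF4 matrix thus gave the highest Dek level with SFM and one of the low levels with TCM. Atad2 (chr15:58094044-58135082, minus strand), a bromodomain ATPase known as an E2F target and co-activator, had 3.49 FPKM in both TCM siKLF4-siFN and TCM siFN, 1.46 in TCM siKLF4 and 0.696 in TCM siNT. It had 0.107 FPKM in SFM siKLF4-siFN, 0.554 in SFM siFN, 3.84 in SFM siKLF4 and 3.08 in SFM siNT. The 8 values of Atad2 ranked almost as those of Dek did (r = 0.98), whereas r of Dek with Hmgn1 was 0.60.

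The highest-to-lowest ratio was 29.2-fold for Dek and 36.0-fold for Atad2, and both depend on SFM siKLF4-siFN. By the estimated depth, Dek rested there on about 2.6 reads and Atad2 on about 7.83 reads, against up to 103 and 404 reads in other libraries. On those approximate reads, rounded to whole numbers, the exact 95% counting interval of the SFM siKLF4 to SFM siKLF4-siFN ratio was 8.30 to 126 for Dek and 17.6 to 82.3 for Atad2. Differences between cultures come on top of such counting errors and could not be measured here.

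The effect of the medium was read from pairs of libraries with the same siRNA. With siKLF4-siFN, 4 members were higher in TCM by at least 1 on the log2(FPKM + 1) scale (Hmgb2 by 2.81, Atad2 by 2.02, Dek by 1.49 and Hmgb3 by 1.22), while 10.2% of all tested genes differed by as much in either direction. The median difference of the 8 genes was 1.10, and that of all tested genes was -0.06. With siFN, 3 were higher in TCM (Hmgb2 by 2.14, Atad2 by 1.53 and Hmgb3 by 1.19), with 5.05% of all genes past that size, a members' median of 0.75 and an overall median of 0.02. With siKLF4 the only member past 1 was Dek, which differed by -1.04 (1.32% of all genes), with medians of 0.07 for the 8 genes and 0.08 for all. With siNT, 3 members were lower in TCM (Hmgn2 at -1.33, Atad2 at -1.27 and Hmgb2 at -1.24), 2.43% of all genes passed that size, and the medians were -0.75 and -0.01. These shares give the background only, since the genes were selected on these values.

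The siFN matrices were compared with those lacking siFN in the same way. Within TCM, no member differed by 1 between siKLF4-siFN and siKLF4 (0.781% of all genes did), though Dek, at 0.92, and Atad2, at 0.87, came close. Between TCM siFN and TCM siNT, 3 members were higher with siFN (Hmgb2 by 1.53, Atad2 by 1.40 and Hmgn2 by 1.10), against 1.86% of all genes. Within SFM, 4 members were lower in siKLF4-siFN than in siKLF4 (Hmgb2 at -2.52, Atad2 at -2.13, Dek at -1.62 and Hmgb3 at -1.02), against 9.87% of all genes. Between SFM siFN and SFM siNT, 2 were lower with siFN (Hmgb2 at -1.84 and Atad2 at -1.39), against 3.66%. The sign of the difference thus turned with the medium for Hmgb1, Hmgb2, Dek and Atad2 in both of these comparisons. For Hmga1 it turned in the opposite sense. Between TCM siKLF4-siFN and TCM siKLF4, however, the difference was only -0.01 for Hmga1, 0.16 for Hmgb2 and 0.18 for Hmgb1.

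**Figure D2:**
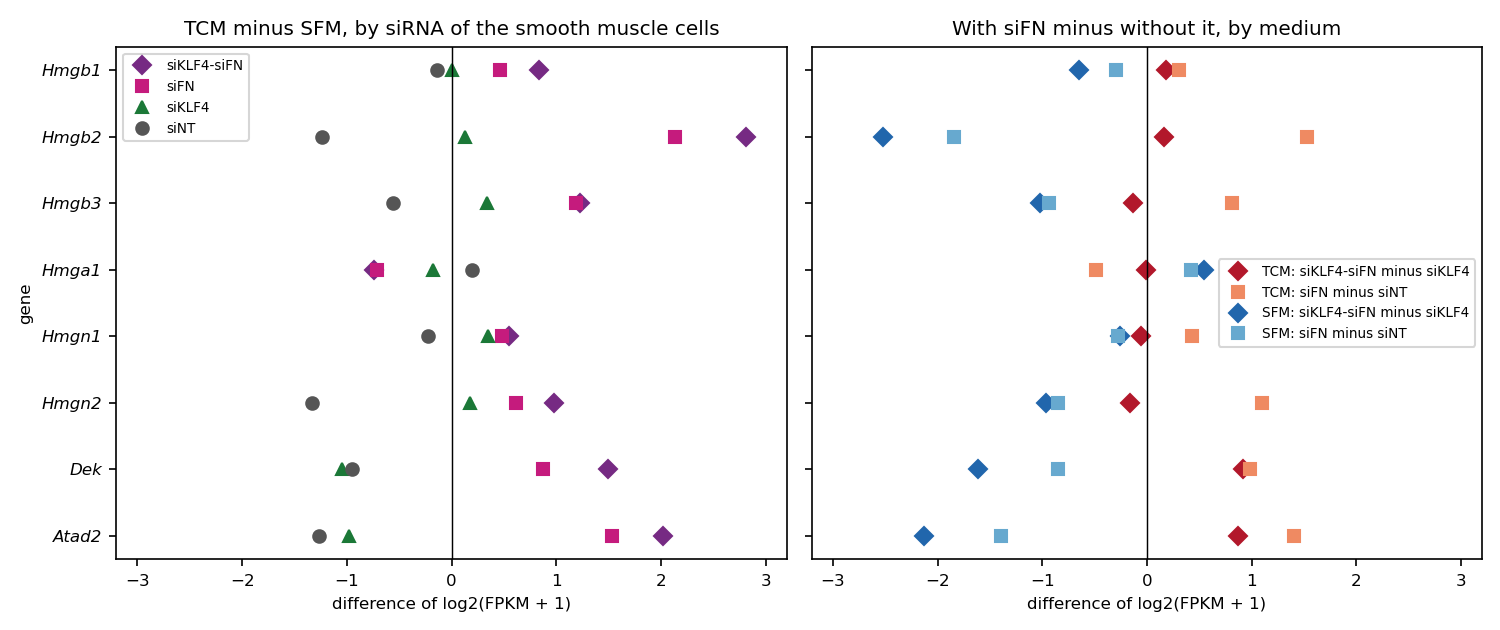
Differences of log2(FPKM + 1) between single libraries for the 8 genes (vertical axis): TCM minus SFM at each siRNA on the left, and with siFN minus without it in each medium on the right. Each point is 1 pair of libraries with no error bar; for Hmgb2 the TCM minus SFM difference is 2.81 with siKLF4-siFN and -1.24 with siNT.

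Matrices made with siKLF4 were then set against those made without it. Between TCM siKLF4 and TCM siNT, Hmgb2 was higher by 1.44 and Hmgn2 by 1.16 with siKLF4, while 1.78% of all genes differed by at least 1. Atad2 differed there by 0.53 and Dek by 0.24. On the log2(FPKM + 1) scale no member differed by 1 between TCM siKLF4-siFN and TCM siFN (0.289% of all genes). Nor did any between SFM siKLF4-siFN and SFM siFN (2.99%), or between SFM siKLF4 and SFM siNT (0.723%). Between SFM siKLF4-siFN and SFM siFN all 8 differences were below 0, with a median of -0.35. The largest on that scale were Hmgb2 at -0.61, Atad2 at -0.49, Hmgn2 at -0.47 and Dek at -0.43. That scale understates differences at low levels, and FPKM ratios gave another order. The level in SFM siFN was 5.79 times that in SFM siKLF4-siFN for Dek, 5.19 times for Atad2 and 1.75 times for Hmgb2. Dek rested on about 2.6 reads in SFM siKLF4-siFN and Atad2 on about 7.83.

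Models over all 8 libraries were fitted to the 6917 genes with limma, in which the 4 libraries of each level stand in for replicates. In the additive fit no gene passed an adjusted p of 0.05 for medium (0% of tested genes; 464 genes had an unadjusted p under 0.05), for siKLF4 (0%; 84 genes) or for siFN (0%; 84 genes). The members' median medium effect was 0.29 against 0.02 over all genes, their siKLF4 effect 0.08 against 0.01 and their siFN effect -0.18 against -0.02. The siFN average joined members' pair medians of 0.07 and 0.89 on TCM with -0.99 and -0.85 on SFM. The medium average joined positive pair medians with siFN and a negative median with siNT. For siKLF4 the pair medians were 0.02 and 0.52 on TCM, and -0.35 and 0.05 on SFM. With the medium by siFN term added, 496 of 6917 genes (7.17%) passed, 265 with a positive and 231 with a negative value, and 2323 had an unadjusted p under 0.05. Atad2, Dek and Hmgb2 were 3 of the 8 members among these, but the set was selected with this contrast known, so nothing is read from that count. The count over all genes was 0 without any 1 of TCM siKLF4-siFN, TCM siFN, SFM siKLF4-siFN, SFM siKLF4 or SFM siNT, while between 1371 and 1958 genes then had an unadjusted p under 0.05. It was 51 without TCM siNT, 553 without TCM siKLF4 and 2065 without SFM siFN.

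The medium by siFN difference is the TCM minus SFM difference with siFN less that without siFN. On the log2(FPKM + 1) scale it was 3.03 ± 0.60 for Hmgb2, 2.90 ± 0.32 for Atad2 and 2.18 ± 0.27 for Dek (estimate ± SE from limma, 8 libraries). Hmgn2 had 1.37 ± 0.53, Hmgb3 1.32 ± 0.35, Hmgb1 0.72 ± 0.20 and Hmgn1 0.45 ± 0.26. Without TCM siNT the value was 0.64 for Hmgn2, 0.85 for Hmgb3 and 0.18 for Hmgn1, and without TCM siKLF4 it was 2.10 for Hmgn2 and 0.72 for Hmgn1. Hmga1 alone had a negative value, -0.74 ± 0.24. The members' median was 1.34 and that of all tested genes -0.06. Each condition has 1 library, with nothing said of separate cultures. These errors and all p-values thus reflect no more than the spread among the 8 libraries. That spread includes any dependence of the siKLF4 difference on medium or siFN, for which the models have no term. For Hmgb2, siKLF4 minus siNT was 1.44 on TCM and 0.07 on SFM. When the closely alike libraries TCM siKLF4-siFN and TCM siFN were counted as 1, no gene passed (0 of 6917, with 1457 at an unadjusted p under 0.05).

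The transcripts of 4 members are very poor in G and C, that of Hmga1 is rich in them, and differences between these libraries moved with GC content. The longest transcripts held 38.66% GC for Hmgb2, 39.2% for Dek, 40.13% for Hmgb1 and 41.48% for Atad2, which placed them above only 1.57%, 2.45%, 4.49% and 8.1% of 5343 tested protein-coding genes. Hmgn1 at 46.92%, Hmgb3 at 47.27% and Hmgn2 at 54.24% lay nearer to the median of 50.62%, and Hmga1, at 61.37%, lay above 97.66% of these genes. Over the same genes, Spearman's rho of GC content with the TCM minus SFM difference was -0.557 with siKLF4-siFN, -0.201 with siFN, 0.553 with siKLF4 and 0.279 with siNT. For SFM siKLF4-siFN minus SFM siFN it was 0.627. Within TCM it was -0.609 for siKLF4-siFN minus siKLF4, -0.348 for siFN minus siNT and 0.023 for siKLF4 minus siNT. These are descriptions over genes of the same libraries, and genes are not independent replicates. In the siKLF4-siFN pair Hmgb1, Hmgb2, Dek and Atad2 lay on the side of low-GC genes in general, and Hmga1 on that of high-GC genes. How much of the members' differences belongs to base composition was not tested beyond the correction that follows.

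**Figure D3:**
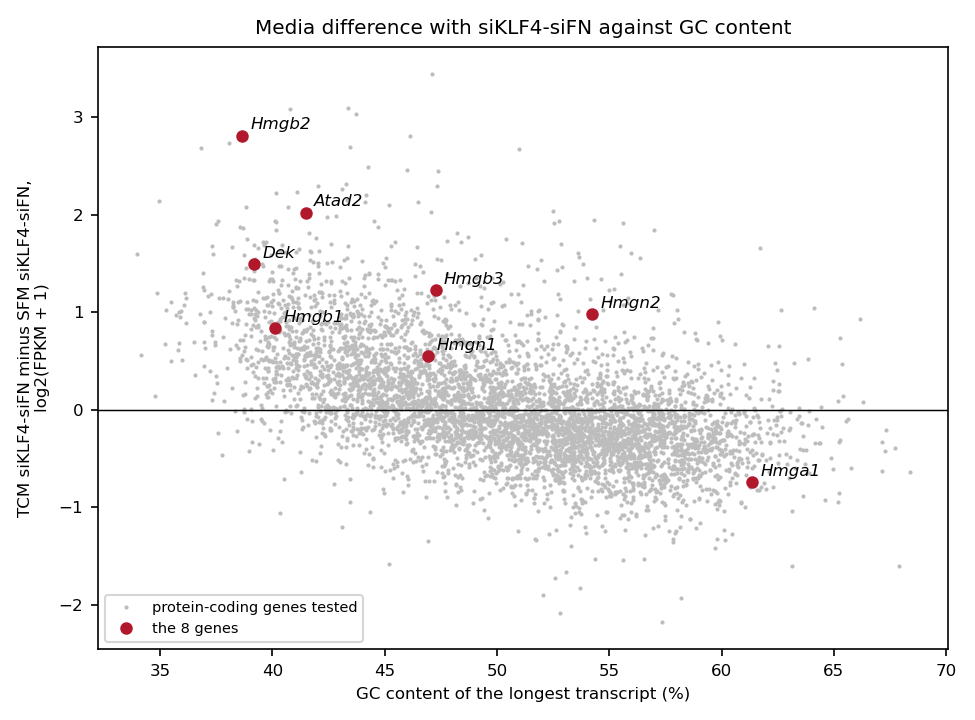
TCM siKLF4-siFN minus SFM siKLF4-siFN difference of log2(FPKM + 1) (vertical axis) against the GC content of the longest transcript in percent (horizontal axis) for 5343 tested protein-coding genes (grey) and the 8 members (red). The grey cloud falls with GC content (rho -0.557); Hmgb2, at 38.66% GC, lies at 2.81, and Hmga1, at 61.37% GC, lies at -0.74.

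A correction for GC content within each library, chosen after the data had been seen, separated the members. The medium by siFN difference was then 0.11 ± 0.11 for Hmgb1, against 0.72 as deposited, and -0.41 ± 0.21 for Hmga1, against -0.74. It was 2.30 ± 0.46 for Hmgb2, 2.39 ± 0.21 for Atad2 and 1.50 ± 0.12 for Dek, each smaller than as deposited. Hmgb3, at 1.24 ± 0.31, and Hmgn1, at 0.35 ± 0.22, moved little, and Hmgn2, at 1.62 ± 0.50, became larger. The low Hmgb1 level in SFM siKLF4-siFN did not remain, since its difference from SFM siKLF4 was 0.02 after correction and -0.65 before. Nor did the shortfall of SFM siKLF4-siFN against SFM siFN remain for Hmgb2, at -0.04, Atad2, at -0.09, or Dek, at 0.10, and the members' median was -0.02. In that pair Hmgn2 stood at -0.65 after correction and -0.47 before, and Hmga1 at -0.28 after and -0.04 before. The low Dek and Atad2 in TCM siKLF4 did remain, at -0.81 and -0.82 relative to SFM siKLF4. Differences in that pair also moved with transcript length, with a Spearman's rho of -0.322 over the protein-coding genes. For SFM siKLF4 minus SFM siNT it was 0.501. The longest transcript has 5684 bases for Atad2 and 2556 for Dek, against a median of 3076. No correction for length was made, and its share in these differences was not tested. The correction shifts values on the log2(FPKM + 1) scale, where an equal shift is a larger fold change at low levels. In SFM siKLF4-siFN it moved Dek from 0.11 to 0.67, Atad2 from 0.15 to 0.57 and Hmgb1 from 0.50 to 1.01. How far the lost differences of these genes follow from that scale was not tested.

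**Figure D4:**
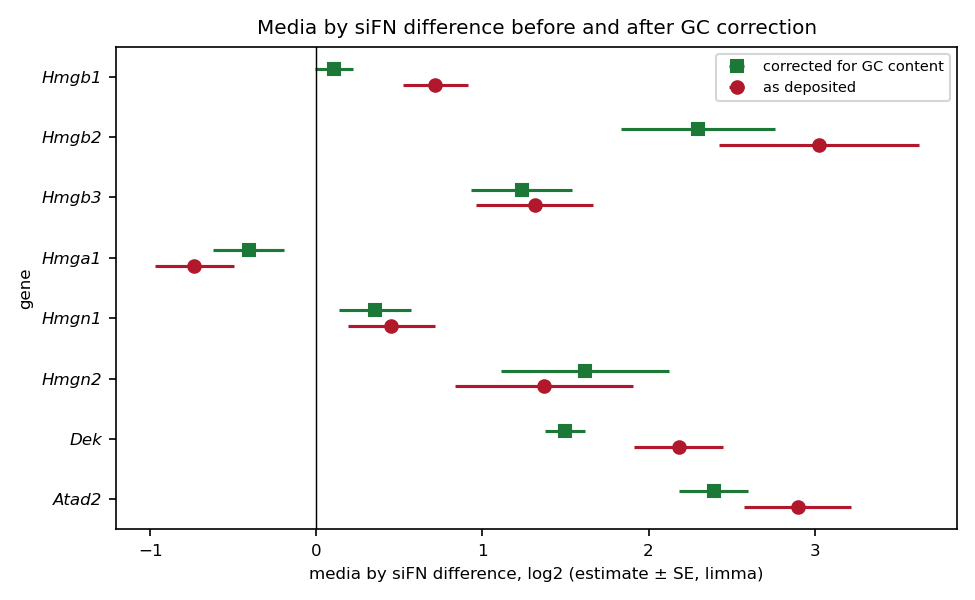
Medium by siFN difference on the log2 scale (horizontal axis, estimate ± SE from limma over 8 libraries) for the 8 genes (vertical axis), corrected for GC content (green squares) and as deposited (red circles). Hmgb1 lies at 0.11 after correction and at 0.72 as deposited, while Hmgb2, Hmgb3, Hmgn2, Dek and Atad2 stay above 1.

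Processed copies bear on the absolute levels of the Hmgb and Hmgn genes. The table lists 13 rows named as -ps or -rs copies of these genes, 9 of them numbered Hmgb1-ps; 4 had a mean of at least 1 FPKM and 2 were listed at 0. Of the 31-base words in transcripts, another annotated gene also held 33.04% for Hmgb3, 29.77% for Hmgn2, 24.68% for Hmgb1, 21.39% for Hmgb2, 14.84% for Dek, 6.13% for Hmgn1 and 2.88% for Atad2. Reads from such stretches can be split between rows by the counting rule, which is not known here. Dek shares its words with Kdm1b, a histone demethylase gene that overlaps the end of Dek on the other strand and had 0.163 to 0.290 FPKM. Strand-specific counting is not stated for these files.

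The listed copies with most words of Hmgb1, Hmgb2, Hmgb3 and Hmgn2 were also low on the SFM matrices made with siFN, and that of Hmgn1 was not. The processed pseudogene Gm13237, which shares 14.84% of the Hmgb2 words, had 193 FPKM in TCM siKLF4-siFN, 182 in TCM siFN, 170 in TCM siKLF4 and 73.1 in TCM siNT. It had 18.0 FPKM in SFM siKLF4-siFN, 53.1 in SFM siFN, 216 in SFM siKLF4 and 202 in SFM siNT, so the row of the copy was listed well above Hmgb2 itself in each library. Gm21596, a processed pseudogene that shares 22.3% of the Hmgb1 words, had 13.7 FPKM in TCM siKLF4-siFN, 15.1 in TCM siFN, 13.7 in TCM siKLF4 and 10.7 in TCM siNT. It had 4.47 FPKM in SFM siKLF4-siFN, 5.90 in SFM siFN, 12.5 in SFM siKLF4 and 8.90 in SFM siNT, so that, unlike Hmgb1, it was lower in SFM siNT than in TCM siNT. Gm10282, a retrogene holding 28.55% of the Hmgn2 words, had 53.3 FPKM in TCM siKLF4-siFN, 51.1 in TCM siFN, 45.1 in TCM siKLF4 and 23.5 in TCM siNT. It had 18.7 FPKM in SFM siKLF4-siFN, 26.1 in SFM siFN, 46.3 in SFM siKLF4 and 43.3 in SFM siNT, low in the same 3 libraries as Hmgn2. Gm6104, the copy of Hmgb3, had 5.91 FPKM in SFM siKLF4-siFN and 3.79 in SFM siFN, against 10.4 in SFM siKLF4 and 9.50 in SFM siNT. Gm7862, the copy of Hmgn1, had 8.25 FPKM in SFM siKLF4-siFN and 6.28 in SFM siFN, against 7.35 in SFM siKLF4 and 3.43 in SFM siNT, its lowest level. Of the numbered copies of Hmgb1, Hmgb1-ps2 was the most abundant, with 1.06 to 4.27 FPKM, and unlike Hmgb1 it was lowest in SFM siNT. In SFM siKLF4-siFN, where Hmgb1 was lowest, Hmgb1-ps2 had 2.59 FPKM, 6.20 times Hmgb1, against 0.970 to 2.92 times in the other libraries. Their sum there was 3.01 FPKM, against 2.06 in SFM siFN, 2.15 in SFM siNT, 2.24 in TCM siNT and 4.82 in SFM siKLF4. Whether reads were divided differently between these rows was not tested.

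**Figure D5:**
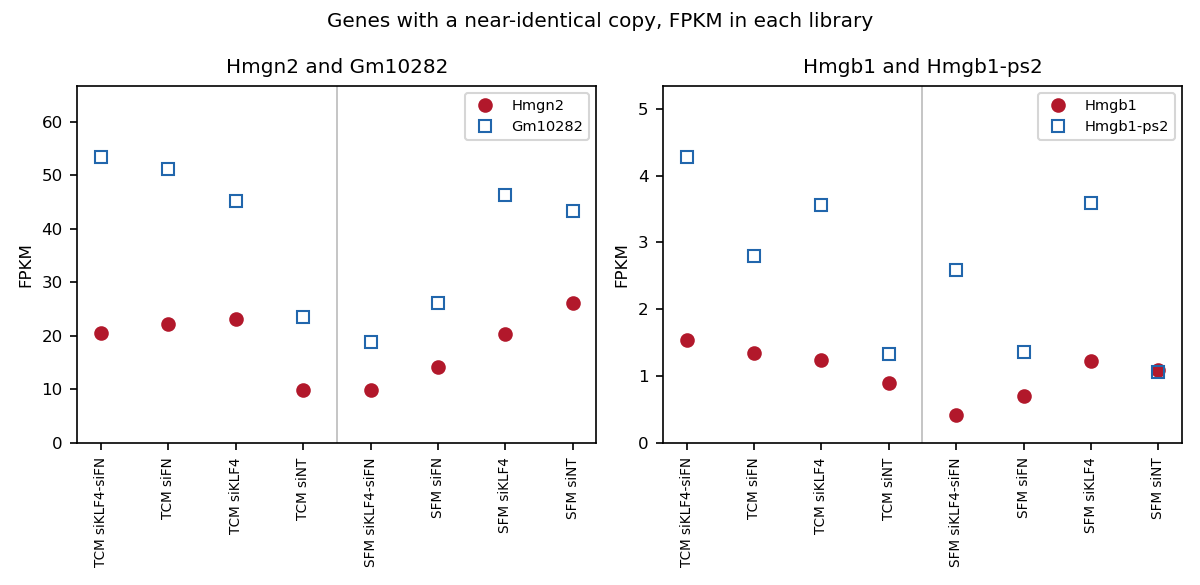
FPKM (vertical axes, linear from 0) of Hmgn2 and Hmgb1 (red circles) and of a copy of each (blue squares) in the 8 libraries (horizontal axes), 1 point per library and no error bars. Gm10282 is high and low in the same libraries as Hmgn2, with 53.3 FPKM in TCM siKLF4-siFN and 18.7 FPKM in SFM siKLF4-siFN. Hmgb1-ps2 differs from Hmgb1 in SFM siNT, where the copy is lowest, and in SFM siKLF4-siFN, where Hmgb1 is lowest.

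The profiles most like those of the 8 genes included some of DNA replication and cell division. Among 1761 other protein-coding genes with a mean of at least 5 FPKM, the profiles most like the mean of the 8 genes over the 8 libraries were those of Mrpl18, Pcna, Gjc3, Top2a, Gm10282, Trp53inp1, Hnrnpa1 and Ccna2 (r from 0.98 to 0.99). Pcna is the replication clamp, Top2a a topoisomerase of dividing cells and Ccna2 a cyclin, while Gm10282 shares sequence with Hmgn2. For single members the closest were Ccnd1, a cyclin gene, for Hmgb2 (r = 0.995), Cdkn1a, a cell cycle inhibitor gene, for Hmgb3 (0.989), Calm2 for Hmgb1 (0.990) and Psrc1 for Hmgn2 (0.979). They were Cox6c for Hmgn1 (0.969), Esd for Hmga1 (0.983), Pdha1 for Dek (0.955) and Gjc3 for Atad2 (0.979). With so few libraries and so many candidates, high values of r arise easily, and they are given as descriptions.

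The cell division and replication lists give the scale of that pattern. The centred mean of the cell division genes was 0.64 in TCM siKLF4-siFN, 0.63 in TCM siFN, 0.59 in TCM siKLF4 and -0.63 in TCM siNT. It was -1.30 in SFM siKLF4-siFN, -1.28 in SFM siFN, 0.64 in SFM siKLF4 and 0.70 in SFM siNT. The 3 low libraries were thus those in which the 7 members were low, and r with this mean was 0.98 for Hmgb2, 0.97 for Hmgb3, 0.92 for Atad2, 0.84 for Dek and -0.92 for Hmga1. Of 13 tested cell division genes, 12 had a positive medium by siFN difference past an adjusted p of 0.05, with a median over the 13 of 2.38. Of 15 replication genes 10 did, with a median of 1.61. These calls, and those of the lists that follow, belong to the 496 (7.17% of all tested genes) and share their dependence on single libraries. Top2a was at 3.97 ± 0.51 (adjusted p = 0.0375, limma) and Rrm2, a subunit of ribonucleotide reductase, at 3.20 ± 0.56 (adjusted p = 0.0419, limma). In TCM siKLF4 the replication mean was 0.50, whereas Dek and Atad2 were low there; Top2a, at 5.82 FPKM, lay between its 9.04 FPKM in TCM siFN and its 1.74 FPKM in TCM siNT. How far a change in cell division accounts for the members' levels was not tested.

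Other chromatin genes were less uniform. None of 8 tested genes among the other HMG-box and HMG genes passed for the medium by siFN difference, and their median was -0.15; Hmg20b had -0.51 and Smarce1, a remodeller subunit, 0.39. Neither of the 2 tested linker histones passed, with Hist1h1c at -0.96 and H1f0 at 0.53. Of 16 histone chaperones 2 passed, both positive, a share not far from the 7.17% of all tested genes, and the list median was 0.75. They were Chaf1a, which delivers histones to new DNA, at 1.43 ± 0.32 (adjusted p = 0.0482, limma) and Nasp, another histone chaperone, at 1.21 ± 0.19 (adjusted p = 0.0385, limma). Npm1, at 1.62 ± 0.63, did not pass, and its value of 11.9 FPKM in SFM siKLF4-siFN stood far below its 42.7 FPKM in SFM siFN.

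Of 20 chromatin readers, writers and remodellers 5 passed, each with a positive value, against 7.17% of all tested genes, and the list median was 0.66. Suz12 and Ezh2, subunits of the Polycomb methyltransferase, had 2.23 ± 0.40 and 1.22 ± 0.25, and the cohesin genes Smc1a and Rad21 had 1.33 ± 0.26 and 1.26 ± 0.28. Uhrf1, which maintains DNA methylation after replication, had 2.01 ± 0.39. Suz12 resembled Dek and Atad2 in TCM siKLF4, with 1.54 FPKM there against 4.38 FPKM in SFM siKLF4. Ezh2 and Rad21 lay outside the naming rule and were named after their values were seen, to complete the 5.

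Genes tied to ATAD2 and to released HMGB1 completed the lists. Of 5 tested genes listed as partners of ATAD2, 2 passed. E2f1, the transcription factor that drives S-phase genes, had 2.30 FPKM in TCM siKLF4-siFN and 2.21 in TCM siFN, against 0.901 in SFM siKLF4-siFN and 0.593 in SFM siFN; its medium by siFN difference was 1.20 ± 0.24 (adjusted p = 0.0432, limma). Myc, a growth regulator, had the opposite sign, -1.12 ± 0.22 (adjusted p = 0.0432, limma), with 13.1 FPKM in TCM siKLF4-siFN and 12.8 in TCM siFN, against 16.3 in SFM siKLF4-siFN and 19.8 in SFM siFN. Its direction was thus that of Hmga1. Of 12 receptors and partners of released HMGB1, 2 were expressed at a mean of at least 1 FPKM, and neither passed: the export receptor gene Xpo1 had 1.72 ± 0.43 and Anxa2 0.81 ± 0.25. For medium, siKLF4 or siFN alone, no gene of these lists passed (limma; 464, 84 and 84 of all tested genes had an unadjusted p under 0.05).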

How the data were processed

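RNA of 8 libraries was measured, 1 per condition. The authors deposited FPKM values for 46477 gene rows in 8 columns, which sum to 151330 to 173957 per library. The tools were STAR 2.4.1d and Partek, on build mm10, per the submitters' processing notes. How reads were counted, with which annotation and with which strand setting is not given in the sources used here. The column siFNSTCM was read as TCM siFN. The 2 date-like names that occur more than once were kept as separate rows.

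The scale was log2(FPKM + 1), which understates differences at low levels, and genes averaging under 1 FPKM were left out of tests. Models were fitted with limma 3.58.1 (R 4.3.3), two-sided and with a variance trend, and p-values were adjusted by the Benjamini-Hochberg method (threshold 0.05). The additive model of medium, siKLF4 and siFN had 4 residual degrees of freedom, and that with the medium by siFN term 3. The limma tests were checked on simulated data with independent noise, which lacked the GC trend and the closely alike libraries seen here. Single libraries were compared without a test. Counts of genes past a log2 difference of 1 are given. GC correction used a loess curve per library over protein-coding genes.

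The members and lists were chosen with earlier results of these data known. From each list the up to 4 tested genes with the largest medium by siFN difference are named, together with the 8 genes of most similar profile, the closest gene to each member and up to 4 copies. Sequence that Hmga1 shares with other genes is not reported here. The copies sharing most words were added after their values were seen. Symbols were matched to GENCODE M21 for 42026 rows (90.4%). Promoter windows came from RefSeq on GRCm38.p6. In each library 25.1% to 31.9% of low values lay within 0.05 of a whole read, against 10% by chance, so depths are approximate.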

Additional observations from a re-analysis of the deposited data

Results flagged for a closer look

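The effect of siFN had opposite signs on the media for 5 genes, in every pair of libraries. Levels were higher with siFN on TCM and lower with it on SFM for Hmgb1, Hmgb2, Dek and Atad2, and the reverse for Hmga1. For 3 of them the sign in TCM siKLF4-siFN minus TCM siKLF4 rested on a small difference. It was -0.01 for Hmga1, 0.16 for Hmgb2 and 0.18 for Hmgb1. For Hmga1, with 8.11 against 8.19 FPKM, it lay within approximate counting errors of 5.6% and 6.5%. The siFN difference on TCM less that on SFM was 0.72 for Hmgb1, 3.03 for Hmgb2, -0.74 for Hmga1, 2.18 for Dek and 2.90 for Atad2 on the log2(FPKM + 1) scale. For Dek and Atad2 the TCM minus SFM difference also turned in every pair, positive with siFN and negative without it, again by 2.18 and 2.90. These differences were not tested as independent results, since the genes were chosen with these values known. How many of all tested genes meet the same rule of signs was not counted. After GC correction the Hmgb1 value was 0.11, and TCM siKLF4-siFN minus TCM siKLF4 stood at -0.01 for Hmgb1, -0.07 for Hmgb2 and 0.19 for Hmga1, so the turn of sign did not hold in every pair for these 3 genes.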

How the results depend on the processing

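No paired analysis was possible because each condition has 1 library and so no replicate number to block on; libraries of the same siRNA are matched through the siKLF4 and siFN terms of the models. The count of genes passing for the medium by siFN difference, 496, was fragile. It was 0 with a pseudocount of 0.1 (2282 at an unadjusted p under 0.05), 0 after rescaling each library to 1000000 (3489) and 0 with TCM siKLF4-siFN and TCM siFN as 1 library (1457). It was 14 without a filter, 251 at a mean FPKM of at least 5, 1006 over protein-coding genes alone and 988 after GC correction of those genes. Leaving out each library in turn gave 0 to 2065: 0 without TCM siKLF4-siFN, TCM siFN, SFM siKLF4-siFN, SFM siKLF4 or SFM siNT, 51 without TCM siNT, and 2065 without SFM siFN. Members passing numbered 0 to 5 over the settings, the 5 where 1006 of 5343 protein-coding genes passed or, without TCM siKLF4, 553 of 6917 genes. The siFN effect gave 0 to 1 genes, the 1 without TCM siNT. The median TCM minus SFM difference of the members moved to 1.61 (pseudocount 0.1) and 1.55 (rescaled) with siKLF4-siFN, and to 1.17 and 1.19 with siFN. For SFM siKLF4-siFN minus SFM siKLF4 it moved to -0.61 over the 4 members with a mean of at least 5 FPKM and to -1.38 after rescaling. Members' medians near 0 changed sign: that of TCM siKLF4-siFN minus TCM siKLF4, 0.07 on the values as deposited, was -0.03 over the 4 members with a mean of at least 5 FPKM and -0.02 after GC correction, and that of SFM siKLF4 minus SFM siNT, 0.05 as deposited, was -0.11 over those 4 members. That of TCM siKLF4-siFN minus TCM siFN, 0.02 as deposited, was -0.02 over them and -0.03 after rescaling. The causes were not tested. Over all settings the medium by siFN difference ranged from 2.23 to 3.82 for Hmgb2, 2.39 to 4.96 for Atad2, 1.50 to 4.47 for Dek and 0.11 to 1.38 for Hmgb1. Dek, Atad2 and Hmgb1 had the lowest means of the 8 genes, 1.14, 2.09 and 1.06 FPKM, where the choice of pseudocount weighs most. They also rested on the fewest reads in SFM siKLF4-siFN.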
